A study of Mus musculus with 6 samples.

Results

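The 6 genes described here, Lypd1, Lypd6, Lypd6b, Lynx1, Ly6e and Ly6h, encode small proteins of the Ly6 family of neurotoxin-like modulators, also called prototoxins. They were taken by symbol from the 33274 gene rows of the count table. Each symbol had 1 row, and all 6 were among the 18327 genes that passed the filter on low counts. The group was chosen by the level of Lypd1, which was higher in the methylphenidate lineage, so the comparison between lineages was part of the choice. Differences between lineages in these genes are for that reason given as a description, with the statistics of the fit over all genes, and support nothing further.

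Prototoxins share the fold of snake alpha-neurotoxins. Most are held on the outer face of the cell membrane by a glycosylphosphatidylinositol (GPI) anchor, where they bind nicotinic acetylcholine receptors and alter how these open, desensitise or reach the surface. In the cerebral cortex Lynx1 is the best known of them, as a brake on nicotinic signalling that limits plasticity in the adult visual cortex.

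RNA came from the cerebral cortex of 6 female wild type mice of the outbred ICR stock, collected at 6 weeks. They were F2 animals, and only the F0 males were dosed. In the methylphenidate lineage (3 libraries) the F0 male had received methylphenidate, a blocker of dopamine and noradrenaline reuptake, at 15 mg/kg under the skin for 21 days from 6 weeks of age. In the saline lineage (3 libraries) the F0 male had received saline at 10 mL/kg for the same time, and in both lineages the females mated in each generation were untreated. Sires and litters are not labelled, and genotypes can differ between outbred animals, so the p-values speak only of the spread among these 6 libraries.

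Library totals lay between 23896752 and 28120640 counts. Of the genes tested, 5 passed an edgeR adjusted p of 0.05, which is 0.0273%. The 15 cortical projection neuron markers that had a row were above 0 in every library, with a summed level of 1946 to 2015 CPM (counts per 1000000 of the TMM-scaled library size) in the saline and 1794 to 2100 CPM in the methylphenidate libraries. Markers of striatal neurons, which lie below the cortex, were also present and varied between libraries, as given below.

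All 6 members have short coding sequences. In the GENCODE M21 annotation of the older build GRCm38, the longest coding sequence had 116 codons for Lynx1, 136 for Ly6e, 141 for Lypd1, 160 for Ly6h, 171 for Lypd6 and 191 for Lypd6b. The median over 22028 protein-coding genes was 391 codons, and 15.0% of them were shorter than Lypd6b. Lynx1, Ly6e and Ly6h lie in the Ly6 cluster on chromosome 15, with 8 annotated protein-coding genes between Lynx1 and Ly6e and 8 between Ly6e and Ly6h. Lypd6b and Lypd6 are direct neighbours on chromosome 2, and Lypd1 stands apart on chromosome 1.

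Lypd1, also known as Lynx2, encodes a prototoxin that damps nicotinic receptors and is known from work on anxiety-like behaviour in mice. It lay at 83.3, 54.5 and 58.7 CPM in replicates 1 to 3 of the saline lineage, and at 119.0, 129.3 and 148.3 CPM in those of the methylphenidate lineage. Every methylphenidate library lay above every saline library, and the highest saline library was replicate 1. The mean was 65.5 ± 15.5 CPM with saline and 132.2 ± 14.9 CPM with methylphenidate (SD, n = 3 per group). The log2 fold change was 1.01 (SE 0.15, 95% interval 0.68 to 1.35), a 2.02-fold difference that did not pass the threshold over all genes (edgeR adjusted p = 0.0960). Of all genes tested, 1.56% had a log2 fold change at or above that of Lypd1.

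The statistics of Lypd1 depended on saline replicate 1. Without that library the log2 fold change was 1.22 (SE 0.11, edgeR adjusted p = 0.00968), and without each of the other five it lay between 0.90 and 1.08, with edgeR adjusted p between 0.0854 and 0.358. DESeq2 gave an adjusted p of 2.84e-10 at a log2 fold change of 1.01. In GENCODE M21 an exon of Lypd1 overlaps one of Gpr39 on the opposite strand, and Gpr39 had between 0 and 4 counts per library against 1395 to 3682 for Lypd1.

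Ly6h encodes a prototoxin of the brain that binds the receptor formed by Chrna7 and holds back its delivery to the surface. It lay at 97.3, 112.6 and 102.2 CPM in replicates 1 to 3 of the saline lineage, and at 134.0, 156.2 and 159.7 CPM in those of the methylphenidate lineage. The groups did not overlap, as for Lypd1, and within the saline lineage the order differed, since saline replicate 1 was lowest for Ly6h and highest for Lypd1. The mean was 104.0 ± 7.8 CPM with saline and 150.0 ± 14.0 CPM with methylphenidate (SD, n = 3 per group). The log2 fold change was 0.53 (SE 0.09, 95% interval 0.34 to 0.72) and did not pass the threshold (edgeR adjusted p = 0.111), while 5.7% of all genes had one at or above it. Without methylphenidate replicate 1 it was 0.60 (edgeR adjusted p = 0.0371), and DESeq2 gave an adjusted p of 1.99e-05.

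**Figure D1:**
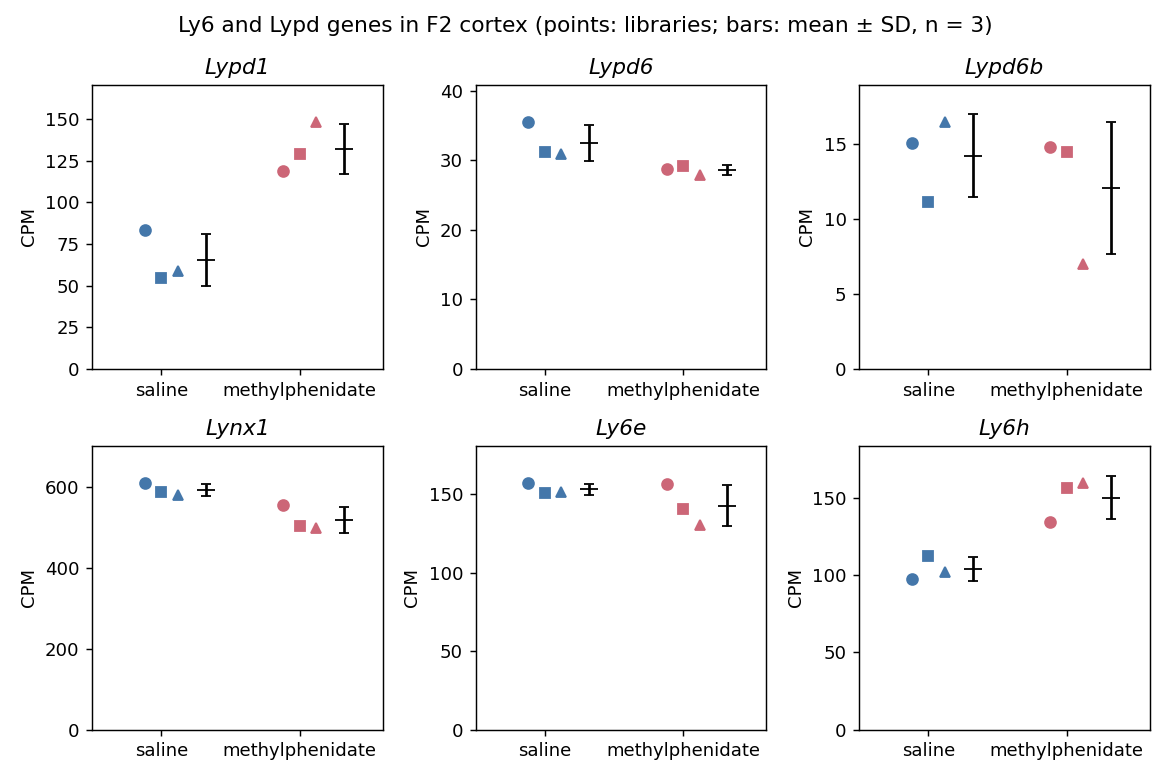
Level of each of the 6 genes in CPM (y axis, from 0) in the saline (blue) and methylphenidate (red) libraries, with circles, squares and triangles for replicates 1, 2 and 3 and black bars for the mean ± SD of 3 libraries. Lypd1 and Ly6h were higher in all 3 methylphenidate libraries, Lypd6 and Lynx1 were lower in all 3, and the groups overlapped in Lypd6b and Ly6e.

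The other four members had fold changes below 0. Lynx1 lay at 611.3, 587.4 and 581.8 CPM in replicates 1 to 3 of the saline lineage, and at 556.4, 503.0 and 498.1 CPM in those of the methylphenidate lineage. The groups did not overlap, but the distance was small next to the level, at 593.5 ± 15.6 against 519.2 ± 32.3 CPM (SD, n = 3 per group). Its log2 fold change was -0.19 (SE 0.06, 95% interval -0.34 to -0.05; edgeR adjusted p = 0.555).

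Lypd6, whose protein modulates nicotinic currents and also acts on Wnt signalling through its co-receptor, had 35.5, 31.2 and 30.9 CPM in the saline and 28.8, 29.2 and 27.9 CPM in the methylphenidate libraries. The methylphenidate libraries lay just below the saline ones and differed little among themselves. The log2 fold change was -0.19 (SE 0.09, 95% interval -0.39 to 0.01; edgeR adjusted p = 0.685).

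Lypd6b, a close relative of Lypd6 that also modulates nicotinic receptors, had 15.1, 11.1 and 16.5 CPM in the saline and 14.8, 14.5 and 7.0 CPM in the methylphenidate libraries. Methylphenidate replicate 3 stood below the rest with 170 counts, where the other five libraries had 285 to 412. The log2 fold change was -0.23 (SE 0.26, 95% interval -0.82 to 0.36; edgeR adjusted p = 0.887) and became 0.04 (SE 0.18) without that library. The same library had the highest Lypd1 level of all 6.

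Ly6e is an interferon-induced and widely expressed member that is better known as a receptor in placental fusion. It had 157.2, 150.6 and 151.5 CPM in the saline and 156.5, 140.6 and 130.4 CPM in the methylphenidate libraries. The groups overlapped, through methylphenidate replicate 1. The log2 fold change was -0.10 (SE 0.08, 95% interval -0.27 to 0.06; edgeR adjusted p = 0.811).

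Across the family, 0 of 6 members passed the edgeR threshold, beside 0.0273% of all genes. At an unadjusted p under 0.05 there were 3 members, Lypd1, Ly6h and Lynx1, where 7.51% of all genes lay. DESeq2 called 2 members, Lypd1 and Ly6h, where it called 152 of all 18327 genes tested. With limma-voom 0 members were called, beside 5 of all genes. The groups did not overlap in 4 of 6 members, 2 higher and 2 lower in the methylphenidate lineage. Over all genes tested the share without overlap was 13.5%, with 6.97% higher and 6.51% lower, and since this comparison chose the family nothing is read from the count. The median log2 fold change of the 6 was -0.14, beside 0.00082 over all genes. The fold change of Ly6h had the same sign as that of Lypd1, and those of the other four members the opposite sign. No test of the difference between members was made.

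**Figure D2:**
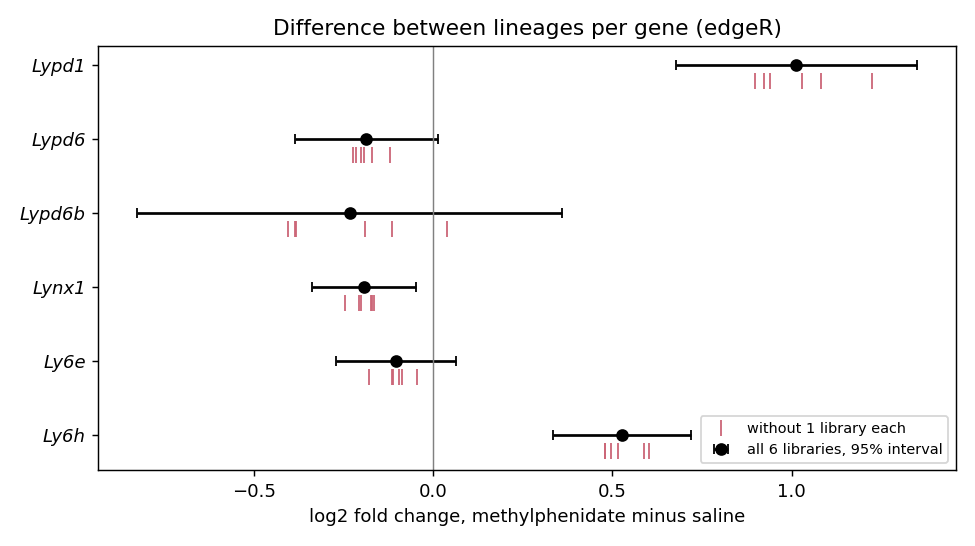
Log2 fold change, methylphenidate minus saline, of the 6 genes (x axis), with black points and 95% intervals for all 6 libraries and red ticks for the fits that leave out 1 library each. Lypd1 (1.01) and Ly6h (0.53) stood above 0 in every fit shown, and the ticks of Lypd6b reached across 0, to 0.04.

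Within the chromosome 15 cluster, Lynx1 and Ly6e had log2 fold changes below 0 and Ly6h one above 0. The neighbours Lypd6 and Lypd6b had values of -0.19 and -0.23 and the interval of Lypd6b reached above 0.

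Ratios between genes within a library do not depend on how libraries are scaled. Lypd1 had 13.6, 9.28 and 10.1% of the counts of Lynx1 in replicates 1 to 3 of the saline lineage, and 21.4, 25.7 and 29.8% in those of the methylphenidate lineage. Ly6h had 15.9, 19.2 and 17.6% of the Lynx1 counts in the saline and 24.1, 31.1 and 32.1% in the methylphenidate libraries. Both ratios were separate between the lineages. Lynx1 in CPM was itself lower in every methylphenidate library, which adds to both differences. Lypd6, by contrast, had 5.48 ± 0.29% of the Lynx1 counts with saline and 5.52 ± 0.31% with methylphenidate (SD, n = 3 per group), so these genes lay in nearly the same proportion in both.

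Levels of different genes were compared per kilobase of exon, with exon lengths from GENCODE M21. Each length is the union of all annotated exons of a gene, 7038 bp for Lypd1 and 3729 bp for Lypd6. Expressed transcripts can be shorter, so comparisons between genes rest on this choice. In the saline lineage the order was Lynx1 at 127.3 ± 3.4 CPM per kilobase, Ly6e at 40.5 ± 0.9, Ly6h at 24.6 ± 1.8, Lypd1 at 9.30 ± 2.21, Lypd6 at 8.73 ± 0.69 and Lypd6b at 5.47 ± 1.07 (SD, n = 3). Lypd1 and Lypd6 did not differ beyond their spread, and the other neighbours in this order were separate in all 3 libraries. In the methylphenidate lineage the order of the means was the same, but the distances were not. Lynx1 lay at 111.4 ± 6.9 CPM per kilobase, Ly6e at 37.7 ± 3.5, Ly6h at 35.5 ± 3.3, Lypd1 at 18.8 ± 2.1, Lypd6 at 7.67 ± 0.18 and Lypd6b at 4.65 ± 1.70 (SD, n = 3). There Ly6h and Ly6e did not differ beyond their spread, and in methylphenidate replicate 3 Ly6h was the higher of the pair, at 37.8 against 34.5. Lypd1 stood clear of Lypd6, with its lowest library at 16.9 and the highest Lypd6 library at 7.82.

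The summed level of the 6 genes per kilobase was 215.9 ± 6.0 CPM with saline and 215.6 ± 6.4 CPM with methylphenidate (SD, n = 3 per group), and thus nearly the same. Lypd1 and Ly6h together made up 15.6, 16.2 and 15.3% of that sum in replicates 1 to 3 of the saline lineage, and 21.8, 25.9 and 28.0% in those of the methylphenidate lineage. Lynx1 made up 59.0 ± 0.2% with saline and 51.6 ± 1.7% with methylphenidate. Lynx1 remained the most abundant member in all 6 libraries.

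**Figure D3:**
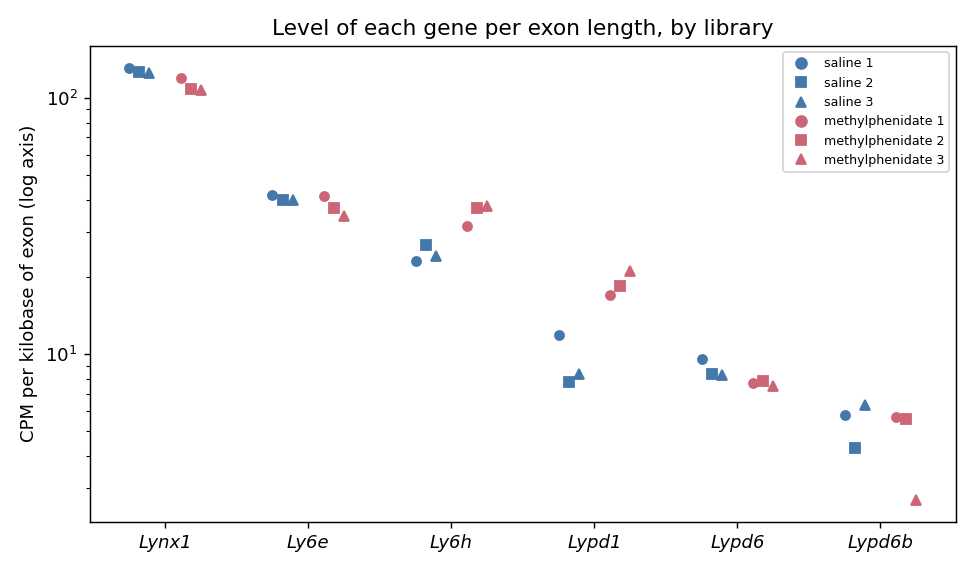
Level of each gene per kilobase of exon in CPM (y axis, logarithmic) for the 3 saline (blue) and 3 methylphenidate (red) libraries, with genes ordered by their saline mean. Lypd1 and Lypd6 lay side by side in the saline lineage, at 9.30 and 8.73, and apart in the methylphenidate lineage, at 18.8 and 7.67.

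The targets of the prototoxins were considered next. Of the 11 neuronal nicotinic receptor subunit genes, 8 passed the filter on low counts and 0 passed the edgeR threshold. Of these, 5 had a log2 fold change above 0 and 3 below, with a median of 0.11. Chrna4 and Chrnb2, which form the main high-affinity nicotinic receptor of the cortex, had log2 fold changes of -0.14 (95% interval -0.37 to 0.09) and 0.0024 (95% interval -0.22 to 0.22). Chrnb2 lay at 64.3, 69.0 and 58.2 CPM in the saline and 59.8, 72.5 and 59.5 CPM in the methylphenidate libraries. Chrna7, the subunit that Ly6h binds, lay at 10.5, 11.6 and 10.8 CPM in the saline and 11.6, 10.8 and 8.85 CPM in the methylphenidate libraries, with a log2 fold change of -0.07 (95% interval -0.40 to 0.25). The groups overlapped in all of them. The modulating subunit gene Chrna5 had a value of -0.20 (SE 0.38) and Chrnb3 of 0.22 (SE 0.34). Chrna2, Chrna3 and Chrna6 had means of at most 1.29 CPM in either lineage and log2 fold changes of 0.62, 0.37 and 0.27, with standard errors of 0.44 to 0.67. Chrna9, Chrna10 and Chrnb4 lay below the filter and were not tested.

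Among 5 genes for the assembly and transport of nicotinic receptors, 0 passed the threshold, with a median log2 fold change of -0.08. Tmem35a, which encodes the chaperone NACHO needed for Chrna7 receptors, had 47.8, 43.7 and 40.7 CPM in the saline and 50.6, 56.1 and 61.5 CPM in the methylphenidate libraries. The log2 difference was 0.35 (SE 0.10; adjusted p by edgeR 0.397). The groups did not overlap in 3 of the 5, with Tmem35a higher and Vsnl1 and Ubxn2a lower in the methylphenidate lineage. Over all genes tested the share without overlap was 13.5%, and nothing is read from a count among so few genes. Ubxn2a lay at 53.1, 52.9 and 53.2 CPM in the saline and 48.9, 45.6 and 44.8 CPM in the methylphenidate libraries, a log2 difference of -0.19 (SE 0.07). Ric3, another chaperone of these receptors, differed by -0.08 on the log2 scale (SE 0.09). Vsnl1, a calcium sensor protein that acts on surface delivery of Chrna4 receptors, differed by -0.25 on the log2 scale (SE 0.07, edgeR adjusted p = 0.346). It lay at 676.5 to 750.1 CPM in the saline and 562.2 to 616.3 CPM in the methylphenidate libraries. The sum of the 5 genes, most of it Vsnl1, was 887.5 to 963.8 CPM with saline and 777.5 to 844.0 CPM with methylphenidate.

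Of 8 genes that make, carry or break down acetylcholine, 4 lay above 0 and 4 below (median 0.49), and 0 passed the threshold. These 8 include Chat, Slc18a3 and Slc5a7, which are also on the hypothalamus and basal forebrain list below. Slc18a3, with 2 to 6 counts in the saline libraries, would not have passed the filter on those alone. Slc5a7, the choline transporter of cholinergic neurons, had 0.76, 1.02 and 0.91 CPM in the saline and 4.18, 1.65 and 5.97 CPM in the methylphenidate libraries. The log2 difference was 2.13 (SE 0.45; adjusted p by edgeR 0.226). Ache, the enzyme that breaks down acetylcholine, differed by -0.04 on the log2 scale (SE 0.07). The GPI anchor is attached and trimmed by enzymes of which 10 were tested. They had a median log2 fold change of 0.02 and a range of -0.16 to 0.15, and 0 passed.

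**Figure D4:**
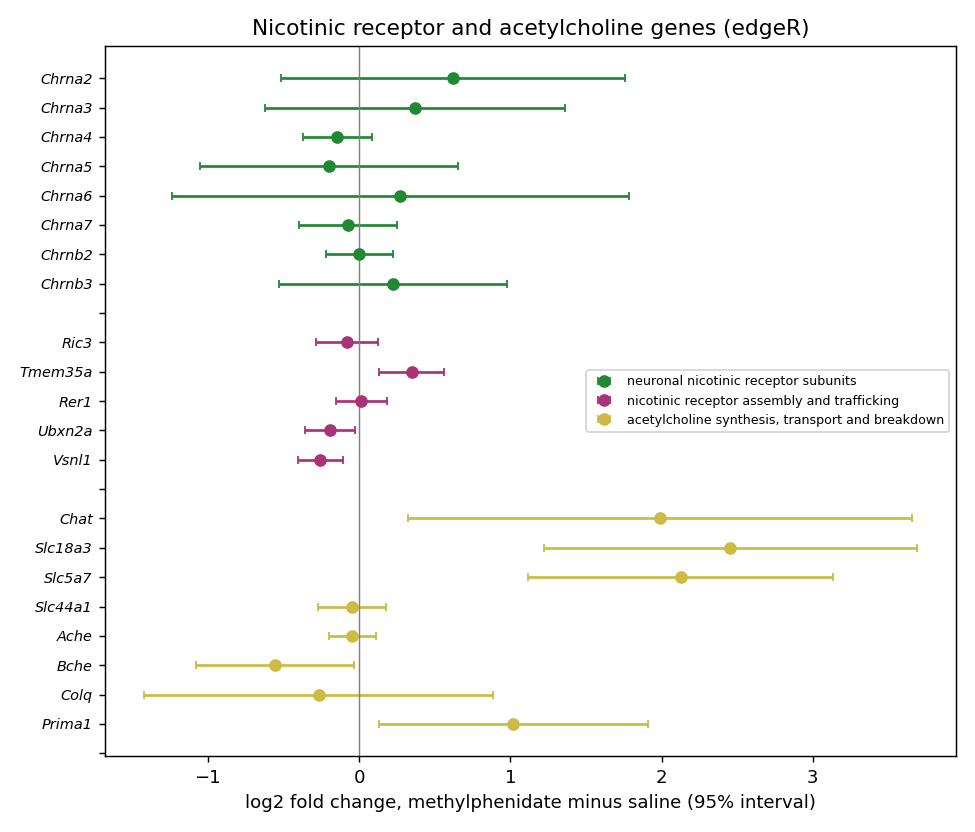
Log2 fold change, methylphenidate minus saline, with 95% intervals (x axis) for the tested neuronal nicotinic receptor subunits (green), receptor assembly genes (magenta) and acetylcholine genes (yellow). The abundant subunits Chrna4, Chrna7 and Chrnb2 lay near 0 with narrow intervals, while Chat, Slc18a3 and Slc5a7 lay near 2 with wide ones.

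Other genes of the Ly6 and uPAR family were mostly scarce in cortex. Of 37 listed, 22 had a row and 9 passed the filter, where 3 had a log2 fold change above 0, 6 below and 0 passed the threshold (median -0.03). Ly6c2 and Ly6d, both scarce, differed by 1.73 (SE 0.90) and -1.45 (SE 0.83) on the log2 scale, with overlapping groups. Ly6c1 and Ly6a, genes of vascular endothelium, differed by -0.0027 (SE 0.17) and -0.14 (SE 0.49) on the log2 scale. Ly6c1 and Ly6c2 are near-identical neighbours and Ly6a has close relatives in the same cluster, so their counts are uncertain. Cd59a and Cd59b, which encode complement inhibitors of the same fold, differed by 0.15 (SE 0.14) and -0.92 (SE 0.34; edgeR adjusted p = 0.598). Cd59b was the one of the 9 whose groups did not overlap, at 1.32 to 1.48 CPM against 0.74 to 0.75 CPM. It had only 18 to 39 counts per library, and 13.5% of all genes tested had groups without overlap.

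Most tested markers of 2 other brain regions had fold changes above 0 in the same comparison, none past the threshold. Of 13 tested striatal projection neuron markers, 12 had a log2 fold change above 0 (median 0.98), and the summed level of the list was 346.8 to 445.0 CPM in the saline and 437.9 to 970.0 CPM in the methylphenidate libraries, so the sums overlapped. One marker, Isl1, was at 0 in 1 saline library. Of 9 tested markers of hypothalamus and basal forebrain, 8 lay above 0 (median 1.99). Some markers would not have passed the filter on their saline libraries alone, which favours values above 0 in these counts and medians. Slc18a3 had 2 to 6 counts in the saline and 19 to 34 in the methylphenidate libraries. Trh had 3 to 15 and 33 to 133 counts, and Six3 of the striatal list 7 to 23 and 36 to 182. Nothing further is read from these tallies. The summed level of the hypothalamus and basal forebrain list, untested genes included, was 19.4 to 20.5 CPM in the saline and 24.0 to 50.9 CPM in the methylphenidate libraries. Most of the saline sum was Zic1, at 14.3 to 15.0 CPM, which had a log2 fold change of -0.11. Pomc had 19.4 CPM in methylphenidate replicate 3, against 1.57 and 1.93 CPM in replicates 1 and 2. Hcrt was at 0 in all 3 saline libraries, and Lhx8 in 2 saline and 1 methylphenidate library. Methylphenidate replicate 3 was the highest library for Lypd1, Ly6h and both lists. Methylphenidate replicate 1 was second highest of all 6 in both lists, at 736.2 and 31.8 CPM, and lowest of its group for Lypd1 and Ly6h. Over the 6 libraries Lypd1 had a Pearson r of 0.89 with the striatal list mean and 0.94 with the other. For Ly6h these were 0.70 and 0.77. Such values hold the difference between lineages that chose the family, and are a description only. Saline replicate 1 was the highest saline library for Lypd1 and both lists and the lowest for Ly6h. The part of striatal or basal forebrain tissue in the Lypd1 and Ly6h levels was not tested. In bulk tissue, more cells of a type and more RNA per cell cannot be told apart.

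The list mean of centred log2 CPM for the striatal markers was -0.15, -0.81 and -0.92 with saline and 0.79, -0.09 and 1.18 with methylphenidate, in the order of the replicate numbers. For hypothalamus and basal forebrain it was -0.41, -1.32 and -0.68 with saline and 0.82, 0.21 and 1.37 with methylphenidate. Both means are over tested genes only, so the filter bears on them as well. Hippocampal markers, a list that holds Nnat and Cpne7, which passed the threshold in these same libraries, had list means of -0.32, 0.16 and -0.29 with saline and 0.19, 0.15 and 0.12 with methylphenidate. Their summed level was 753.4, 850.8 and 732.8 CPM in the saline and 818.6, 815.3 and 822.9 CPM in the methylphenidate libraries, so the lineages overlapped in that list.

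**Figure D5:**
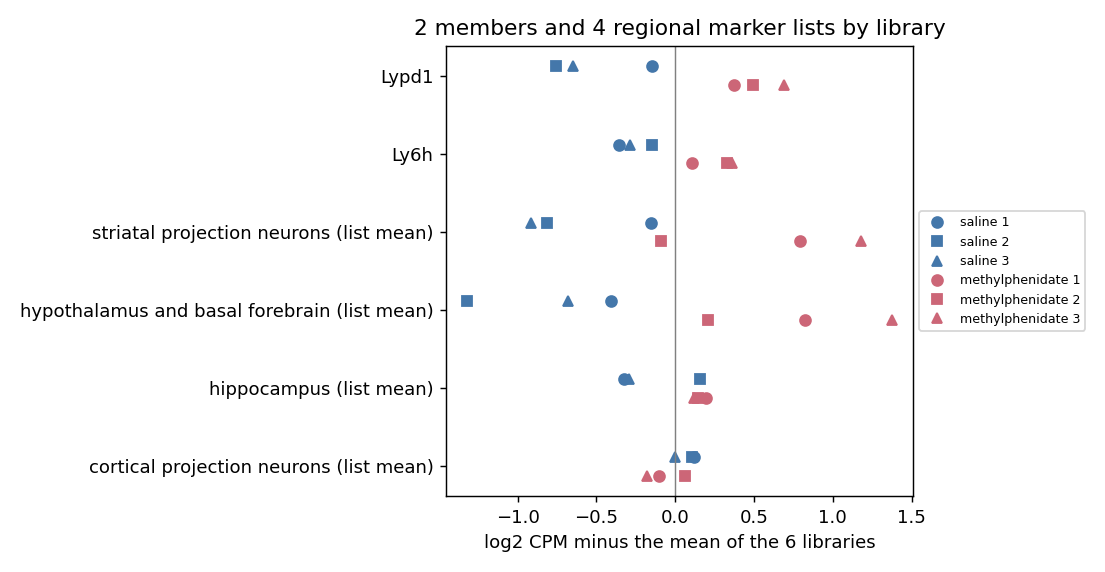
Log2 CPM minus the mean of the 6 libraries (x axis) for Lypd1 and Ly6h, and the mean of the same measure over 4 lists of regional markers, with blue for saline, red for methylphenidate and circles, squares and triangles for replicates 1, 2 and 3. The lineages were separate for Lypd1, Ly6h, the striatal and the basal forebrain list, with the nearest libraries of the striatal list at -0.15 and -0.09.

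Most other cell type lists had medians nearer 0. Cortical projection neuron markers had a median log2 fold change of -0.17, with 12 of 15 below 0. Interneuron, astrocyte, microglia and endothelial lists had medians of 0.03, 0.13, 0.09 and 0.02, those of oligodendrocytes and their precursors 0.11, of mural cells and meninges -0.06 and of blood cells -0.11. The microglia list stood out in methylphenidate replicate 3, with a summed level of 482.5 CPM against 368.6 to 393.6 CPM in the other five libraries. That library also had the highest Lypd1 and Ly6h and the lowest Lypd6b, and the part of microglia in these levels was not tested. The choroid plexus list had a median of -0.61 with all 8 below 0, and its summed level spanned 43.9 to 665.8 CPM in the saline and 26.0 to 508.8 CPM in the methylphenidate libraries, so it varied far more within a lineage than between them. Its lowest libraries were methylphenidate replicate 3 and saline replicate 1, the highest of their groups for Lypd1. The 2 muscle-type subunits of the nicotinic receptor that were tested had log2 fold changes of 0.02 and 0.50.

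The genes whose levels followed Lypd1 most closely over the 6 libraries were found among 13830 others with a mean of at least 1 CPM and an informative symbol. They were Ankrd63 (Pearson r = 0.995), Foxo1 (0.994), the potassium channel gene Kcna5 (0.988), the receptor kinase gene Grk6 (0.984) and Dock9 (0.983), and 53 genes had r above 0.95. Ankrd63, Foxo1 and Kcna5 differed between lineages by 0.75 (SE 0.14), 0.58 (SE 0.12) and 1.68 (SE 0.32) on the log2 scale, none past the threshold (edgeR adjusted p 0.192 to 0.220). The closest genes were Smpd2 and Trp53i13 for Ly6h, Fbxo3 and Tcf12 for Lynx1, Fkbp3 and Ifitm1 for Ly6e, Ahnak and Nat8l for Lypd6 and Gigyf2 and Timm10b for Lypd6b, with r between 0.988 and 0.998. With 6 libraries that share their scaling and so many genes, values this high are a description only.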

How the data were processed

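The values the authors deposited are raw counts, 1 whole number per Ensembl gene and library. The submitters' processing notes name HISAT2 2.2.1, StringTie 2.2.1, fastp 0.23.4, bcl2fastq 2.19 and build GRCm39. The annotation release and strand setting: not given in the sources used here. Of the rows, 985 had no symbol. Group and replicate came from sample titles.

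Counts were fitted in R 4.3.3 with edgeR 4.0.16 over all genes (filterByExpr, TMM, quasi-likelihood, group only, two-sided, Benjamini-Hochberg, threshold 0.05). The standard error is the log2 fold change over the root of F, and list means use log2 CPM with a prior count of 2. Between libraries of a group, chi-square over degrees of freedom was 13.0 to 19.9, where sampling noise alone gives about 1. None was thus a second sequencing of the same library. The value cannot tell separate animals from separate preparations of 1 animal. Alternatives were other scalings and filters, DESeq2 1.42.0, limma-voom (limma 3.58.1), a replicate block, library sizes without mitochondrially encoded genes and leaving out each library.

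The members, the 18 gene lists and the tests were chosen with earlier results of these data known. Named genes were the members, all neuronal nicotinic subunits, the genes of smallest p in each list (at most 4) and those most correlated with a member. For cell type and region lists and a few others, the genes that rule takes are mostly given only as list totals. Ache, Ly6a, Ly6c1, Isl1, Hcrt, Lhx8, Zic1, Pomc and Gpr39 fall outside it and were named after their values were seen.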

Additional observations from a re-analysis of the deposited data

How the results depend on the processing

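Under 15 alternatives the log2 fold changes of Lypd1, Lypd6, Lynx1, Ly6e and Ly6h kept their sign, and that of Lypd6b turned to 0.0399 without methylphenidate replicate 3. Leaving out 1 library gave 0.90 to 1.22 for Lypd1, 0.48 to 0.60 for Ly6h and -0.40 to 0.0399 for Lypd6b. Lypd1 passed the threshold with total counts (1.03, edgeR adjusted p = 0.0491), with DESeq2 (1.01) and without saline replicate 1. Ly6h passed with DESeq2 (0.53) and without methylphenidate replicate 1. Members past the threshold thus numbered 1 with total counts, 2 with DESeq2 and 0 to 1 without any one library. Genes past it in the whole table, 5 in all, numbered 10 with total counts, 3 without a filter, 152 with DESeq2 and 2 to 26 without one library. The causes were not tested. With the replicate block the whole table had 2 genes and no member past the threshold, and Lypd1 had 1.03 (edgeR adjusted p = 0.193). Same-numbered samples deviated from their group means with correlations of -0.04, 0.09 and -0.02. Saline replicate 1 correlated best with methylphenidate replicate 3, at 0.13. The labels do not pair the samples, and so few libraries cannot decide whether a shared number means more. No scaling moved the median of all genes by more than 0.01. A count of 0 allows 3 counts, which is 0.105 to 0.124 CPM and covers counting error alone.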
